A study of Homo sapiens with 24 samples.

Results

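The RNA polymerase II CTD phosphatase genes examined here are RPAP2, SSU72, CTDP1, CTDSP1, CTDSP2, CTDSPL, CTDSPL2 and UBLCP1, chosen by name as phosphatases of the polymerase tail and their small relatives. These 8 genes were all found among the 58138 gene names of the count tables, and all 8 passed the filter on low counts in every fit. The 24 libraries were made from polyadenylated RNA of human embryonic kidney lines with a kit that reads transcripts from their 3′ ends, and they fall into 12 groups of 2. In HEK293T cells, a 293 derivative that carries the SV40 large T antigen, siRNAs were transfected for 48 h. The 8 HEK293T groups received a control siRNA (CTRL), siRNAs against 1 gene (labelled RPRD1A_KD, RPRD1B_KD and RPRD2_KD) or siRNAs in combination (labelled RPRD1A_RPRD1A_KD, RPRD1B_RPRD2_KD, RPRD1A_RPRD2_KD and, for all 3 genes, RPRD1A_RPRD1B_RPRD2_KD). The label RPRD1A_RPRD1A_KD names RPRD1A in both positions and was kept as written. The Flp-In T-REx 293 groups come from a 293 line with a site for inserting a transgene under a tetracycline-controlled promoter. They are the untreated cells FLP and RPRD1B_FL, and the same with tetracycline for 48 h, FLP_TET and RPRD1B_FL_TET. The labels do not explain FL, nor say how many clones the RPRD1B_FL line holds. The series' design text gives the question as the role of RPRD proteins in steady-state RNA.

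The largest subunit of RNA polymerase II ends in a long tail of repeated heptapeptides, the C-terminal domain or CTD. Kinases add phosphates to its serines as the polymerase starts and elongates, and phosphatases remove them so that the enzyme can terminate and be used again. RPRD1A, RPRD1B and RPRD2 are proteins with a CTD-interaction domain that bind the phosphorylated tail, and RPRD1A and RPRD1B are found with RPAP2 in polymerase complexes.

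CTDSPL, CTDSP2 and CTDSP1, which encode the small CTD phosphatases, share a feature that their choice did not use: each carries a miR-26 hairpin in an intron, on its own strand. MIR26A1 lies in intron 4 of 6 of CTDSPL, with the 5p arm at chr3:37969413-37969434 on the plus strand. MIR26A2 lies in intron 5 of 7 of CTDSP2, with the 5p arm at chr12:57824658-57824679 on the minus strand. MIR26B lies in intron 4 of 6 of CTDSP1, with the 5p arm at chr2:218402657-218402677 on the plus strand. The mature sequences, from RefSeq on GRCh38.p14, are shown because the 3 hosts share this feature, and the levels of the hosts in the cell lines are compared below. Capitals mark the seed, bases 2 to 8 from the 5′ end.
hsa-miR-26a-5p: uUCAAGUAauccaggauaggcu
hsa-miR-26b-5p: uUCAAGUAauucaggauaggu
hsa-miR-26a-1-3p: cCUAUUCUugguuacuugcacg
hsa-miR-26a-2-3p: cCUAUUCUugauuacuuguuuc
hsa-miR-26b-3p: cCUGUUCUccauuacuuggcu

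The CTDSPL and CTDSP2 hairpins give the same 5p miRNA, and the 5p arms of all 3 hosts share 1 seed. Counted from the 5′ end over 21 bases, hsa-miR-26a-5p differs from hsa-miR-26b-5p by C11U and C21U, both outside the seed. The 3p arms from CTDSPL and CTDSP2 share a seed, and that from CTDSP1 has another. Mature miRNAs were not measured by these libraries: MIR26A1 and MIR26A2 had 0 counts in every library and MIR26B had 2 counts in all, so the host mRNA is all that is described.

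The libraries held 1817246 to 3135625 counts in genes in HEK293T and 2342969 to 3531106 in Flp-In T-REx 293, and levels are given as CPM, counts scaled to a common library size, on 1 scale over all 24. The silenced genes checked the labels: RPRD1A was 152 and 162 CPM in CTRL and 14.3 to 26.8 in the 4 groups that name it, but also 67.8 to 99.9 in the 3 silenced groups that do not. RPRD2 was 96.1 and 99.4 CPM in CTRL and 30.2 to 67.8 in the 4 that name it. RPRD1B was 27.8 and 27.5 CPM in CTRL and 3.87 to 14.3 in the 3 groups that name it, but also 13.7 and 7.87 in RPRD1A_RPRD1A_KD, whose label does not. RPRD1B reached 89.1 and 67.2 CPM in RPRD1B_FL_TET, against 30.8 and 30.4 in FLP_TET. In that comparison the edgeR test used below called RPRD1B higher and also called RPRD1A lower. All 9 markers listed for 293 cells had counts in every library. They summed to 161 to 241 CPM in HEK293T and 661 to 858 in Flp-In T-REx 293. In HEK293T, VIM had the highest median of them, at 131.6 CPM. The lowest were those of NEFL (2.728), KRT8 (3.81), PAX2 (1.989) and EPCAM (2.672). The medians of NEFM (11.96 against 1.595 CPM) and LHX1 (9.681 against 8.355) were higher in HEK293T than in Flp-In T-REx 293. Those of the other markers were lower in HEK293T. The 4 markers of differentiated kidney summed to at most 2.16 CPM, and UMOD, AQP2 and CD3E were at 0 in all libraries. The 3 blood markers summed to at most 0.76 CPM, the liver marker ALB to at most 0.39, and COL1A1 with PECAM1 to 3.69 to 14.1 CPM in HEK293T and 1.14 to 5.32 in Flp-In T-REx 293. The library of RPRD1A_RPRD2_KD replicate 2 stood apart in HEK293T: across genes, its level relative to the other libraries correlated with transcript GC content at r = 0.34, against -0.23 to 0.11 in the other 15 libraries. In Flp-In T-REx 293 the same r ran from -0.52 to 0.57, with both FLP libraries negative (-0.52 and -0.33) and both FLP_TET libraries positive (0.30 and 0.44).

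SSU72 was the most abundant member in both lines. It encodes a CTD phosphatase of the cleavage and polyadenylation machinery and lies at chr1:1541673-1574869 on the minus strand. Its HEK293T level had a median of 174.8 CPM, from 156.3 to 229.9, and its Flp-In level a median of 192 CPM, from 154 to 218. In a 3′ method one transcript gives about one read whatever its length, so levels of different genes can be ordered, although priming and mapping still differ between genes. SSU72 lay above every other member in each of the 24 libraries.

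The next members in HEK293T were close to one another. CTDSP1 (chr2:218398256-218405941, plus strand) had a median of 65.5 CPM, from 54.6 to 91.5, and CTDSP2 (chr12:57819927-57846739, minus strand) 62.4 CPM, from 49.9 to 84.1. CTDP1, the TFIIF-associated phosphatase FCP1 that restores polymerase for reuse (chr18:79679801-79756623, plus strand), had a median of 51.2 CPM, from 41.2 to 80.3. CTDSPL (chr3:37861960-37984469, plus strand) followed with 48.8 CPM, from 43.3 to 56.6. CTDSPL2 (chr15:44427234-44529038, plus strand), a larger relative of the small phosphatases, had 44.1 CPM, from 32.2 to 50.3. RPAP2, an atypical zinc-containing phosphatase that acts on CTD serines and escorts polymerase into the nucleus (chr1:92298965-92402056, plus strand), had 31.7 CPM, from 19.9 to 42.9. UBLCP1, which has a ubiquitin-like domain and is best known for dephosphorylating the nuclear proteasome (chr5:159263081-159286040, plus strand), was lowest at 17.8 CPM, from 12.97 to 26.0. From CTDSP1 down to UBLCP1, each gene's range overlapped that of the next in the order, so the order of neighbours is not larger than their spread. Coordinates are those of GENCODE 29 on GRCh38.

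**Figure D1:**
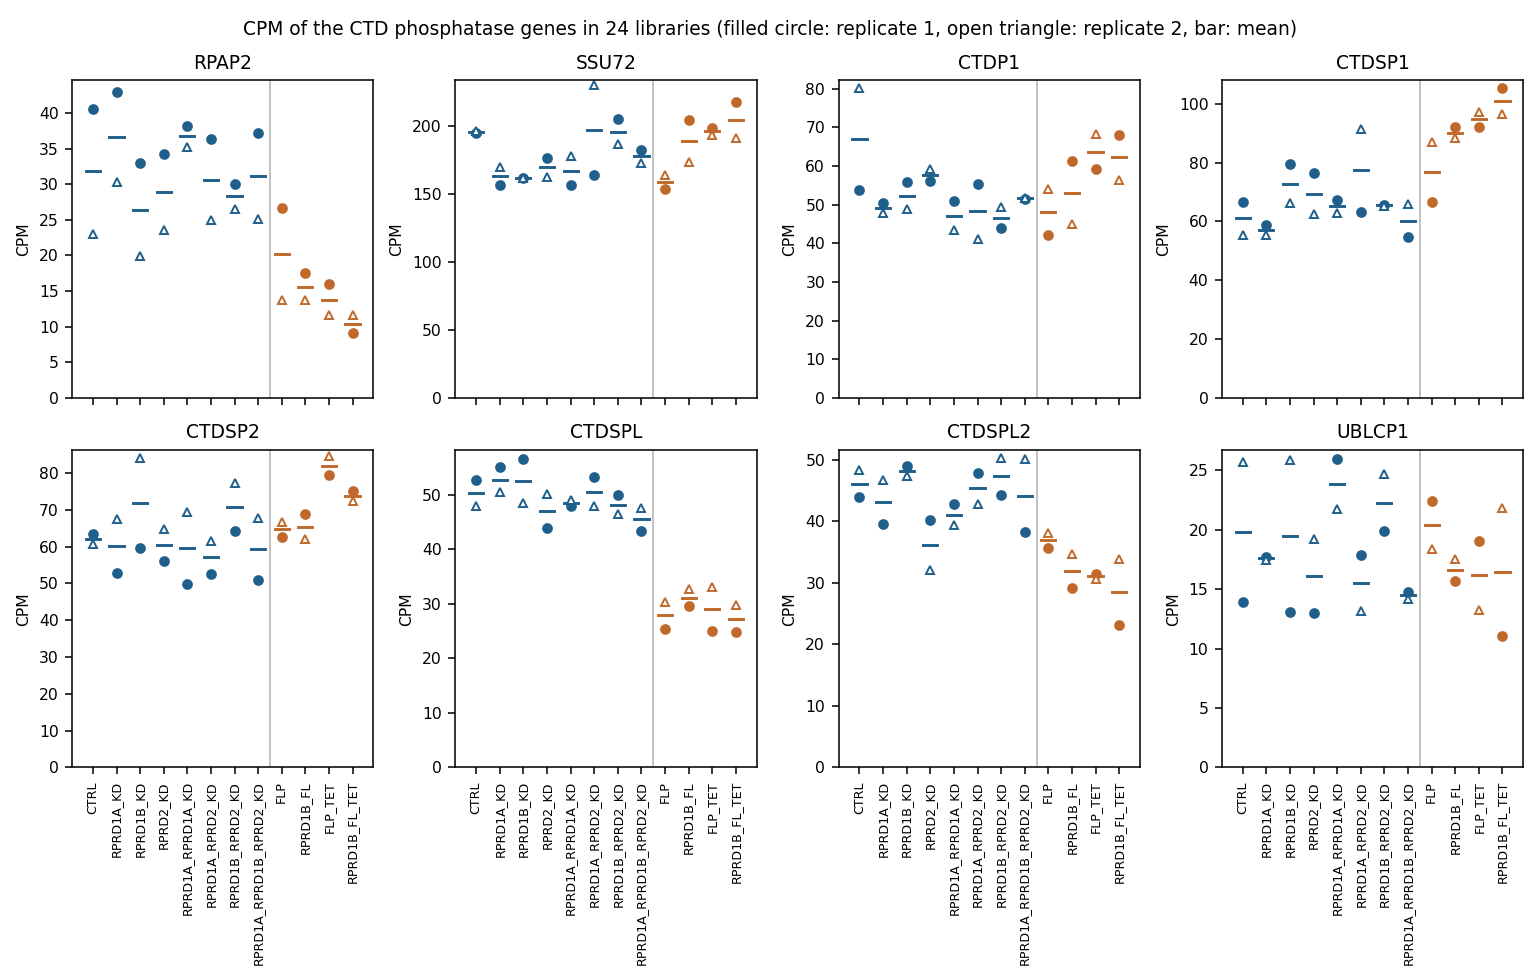
Level of each CTD phosphatase gene in CPM (vertical axis, from 0, with its own scale per gene) in the 12 groups, with replicate 1 as a filled circle, replicate 2 as an open triangle and the mean as a bar; HEK293T groups are left of the grey line and Flp-In T-REx 293 groups right of it. CTDSPL separates the lines, with 43.3 to 56.6 against 24.8 to 33.0 CPM, and RPAP2 replicate 1 lies above replicate 2 in all 8 HEK293T groups.

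In Flp-In T-REx 293 the order was SSU72, CTDSP1 at a median of 92.2 CPM, CTDSP2 at 70.7, CTDP1 at 57.8, CTDSPL2 at 32.6, CTDSPL at 29.7, UBLCP1 at 17.9 and RPAP2 at 13.7. CTDSPL2 and CTDSPL, and likewise UBLCP1 and RPAP2, changed places relative to HEK293T, and the ranges of both pairs overlapped. Neighbouring genes bear on a few of these counts. RPAP2 shares 23 exonic bases, outside its last exon, with GLMN on the opposite strand, and CTDSP1 shares 468 exonic bases with the antisense AC021016.3, which had 0 to 11 counts. CTDSPL2 shares 283 bases of its last exon with EIF3J-DT on the opposite strand. The strand setting of the counting is not given in the sources used here, so reads of these overlaps cannot be assigned with certainty. The SSU72 copies SSU72P1, SSU72P6 and SSU72P8 had 0 counts in all libraries.

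None of the 8 phosphatase genes was called in any of the 7 knockdown groups against CTRL by edgeR's quasi-likelihood test at a Benjamini-Hochberg adjusted p under 0.05, and DESeq2 called none either. The smallest adjusted p of a member was 0.68. The same test called RPRD1A in every knockdown group that names it. It called RPRD2 in RPRD2_KD and RPRD1B_RPRD2_KD, but not in RPRD1A_RPRD2_KD or RPRD1A_RPRD1B_RPRD2_KD. RPRD1B was called in none of the groups that name it. The test thus missed silenced genes, and a member without a call may still have changed. In these fits, which hold no term for replicate number, calls were rare over all 11834 genes tested as well. They made up 0.00845% of genes in RPRD1A_KD, RPRD1B_KD, RPRD2_KD and RPRD1A_RPRD2_KD, and 0.0169% in RPRD1A_RPRD1A_KD, RPRD1B_RPRD2_KD and RPRD1A_RPRD1B_RPRD2_KD. With a replicate term and without RPRD1A_RPRD2_KD replicate 2, 25 to 167 of 12255 genes were called in the knockdowns other than RPRD1A_RPRD2_KD, again with no member. The members' median log2 fold change lay between -0.15 in RPRD2_KD and 0.02 in RPRD1B_RPRD2_KD, beside -0.0062 to 0.0037 for all genes tested. All 7 comparisons share the 2 CTRL libraries. In a bulk sample, fewer cells of a kind and less RNA per cell cannot be told apart.

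RPAP2, the phosphatase found with RPRD1A and RPRD1B, read 40.6 and 23.1 CPM in CTRL replicates 1 and 2. In the single knockdowns it read 42.9 and 30.3 in RPRD1A_KD, 33.0 and 19.9 in RPRD1B_KD, and 34.3 and 23.5 in RPRD2_KD. In the combined groups it read 38.2 and 35.3 in RPRD1A_RPRD1A_KD, 36.3 and 24.98 in RPRD1A_RPRD2_KD, 30.0 and 26.6 in RPRD1B_RPRD2_KD, and 37.2 and 25.1 in RPRD1A_RPRD1B_RPRD2_KD. The mean of every silenced group lay between the 2 CTRL values. The log2 fold changes ran from -0.25 in RPRD1B_KD (SE 0.33) to 0.23 in RPRD1A_RPRD1A_KD (SE 0.33), with 95% intervals that spanned -0.95 to 0.92 over the 7 comparisons. These fits hold no term for replicate number, so the intervals include the differences between replicate numbers given next.

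Within the HEK293T groups, the RPAP2 value of replicate 2 was below that of replicate 1 in 8 of 8 groups, by -0.81 to -0.12 on the log2 scale with a median of -0.54. Across 8730 genes with a mean of 10 CPM or more, 7.45% were lower in replicate 2 in all 8 groups. CTDSP2 stood on the other side: replicate 2 was higher in 7 of 8 groups, with a median of 0.31, and 19.5% of genes were higher in 7 or 8. The other 6 members were split, with replicate 2 higher in 2 to 4 groups. Reads outside annotated genes also divided by replicate number, at 34.3% to 36.7% of reads in the 8 replicate 1 libraries and 27.4% to 29.8% in the 8 replicate 2 libraries, with no overlap, and their part in these differences was not tested. The labels do not say what a replicate number marks.

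**Figure D2:**
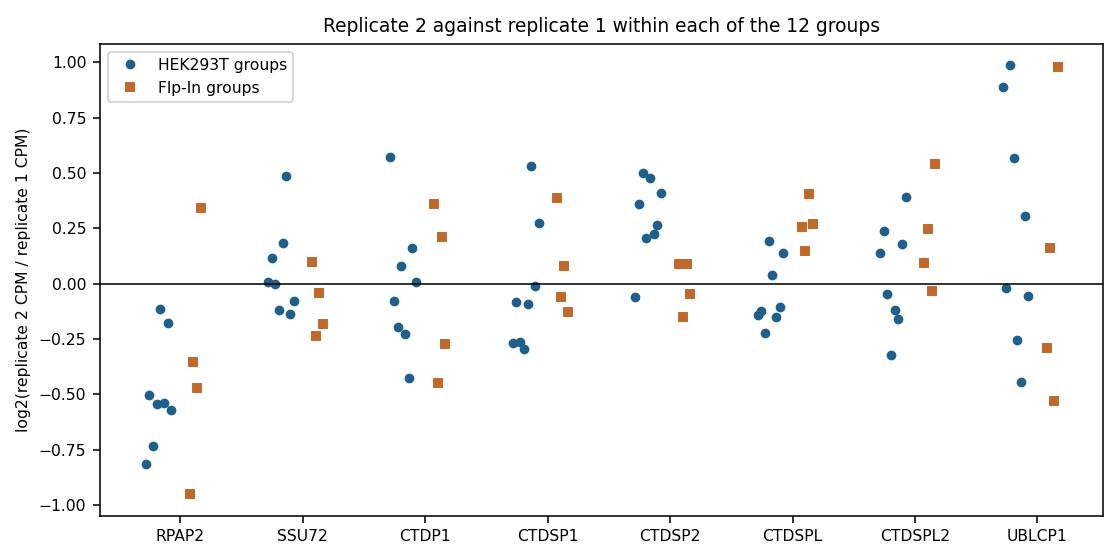
Difference of replicate 2 from replicate 1 on the log2 CPM scale for each member, with HEK293T groups as circles and Flp-In groups as squares. All 8 HEK293T points of RPAP2 lie below 0, from -0.81 to -0.12, and 7 of 8 of CTDSP2 lie above 0.

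CTDP1 was the single member with an unadjusted p under 0.05 in the knockdowns, and in each case its CTRL replicate 2 lay far above the rest. It read 53.9 and 80.3 CPM in CTRL, 50.4 and 47.8 in RPRD1A_KD, 55.9 and 48.8 in RPRD1B_KD, and 56.1 and 59.2 in RPRD2_KD. It read 50.9 and 43.5 in RPRD1A_RPRD1A_KD, 55.3 and 41.2 in RPRD1A_RPRD2_KD, 44.0 and 49.3 in RPRD1B_RPRD2_KD, and 51.5 and 51.8 in RPRD1A_RPRD1B_RPRD2_KD. All 14 silenced libraries lay below CTRL replicate 2, and 4 of them lay above CTRL replicate 1. The log2 fold changes were -0.46 (SE 0.21, unadjusted p 0.048) in RPRD1A_KD, -0.51 (SE 0.22, p 0.031) in RPRD1A_RPRD1A_KD, -0.51 (SE 0.22, p 0.030) in RPRD1A_RPRD2_KD and -0.53 (SE 0.22, p 0.025) in RPRD1B_RPRD2_KD, by edgeR's quasi-likelihood test. The background of genes under 0.05 without adjustment was 2.64% in RPRD1A_KD, 3.99% in RPRD1A_RPRD1A_KD, 7.07% in RPRD1A_RPRD2_KD and 2.51% in RPRD1B_RPRD2_KD. Without CTRL replicate 2 those 4 values became -0.14, -0.19, -0.20 and -0.21, and without CTRL replicate 1 they ran from -0.78 to -0.71, so their size depends on which CTRL library is kept. No member had an unadjusted p under 0.05 in RPRD1B_KD, RPRD2_KD or RPRD1A_RPRD1B_RPRD2_KD, where 3.46%, 3.84% and 3.99% of all genes did.

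Of the other 6 members, SSU72 ran from -0.27 to 0.0093 on the log2 scale over the 7 comparisons, with 95% intervals from -0.61 to 0.35. The small phosphatases ran from -0.09 to 0.33 for CTDSP1, from -0.14 to 0.22 for CTDSP2 and from -0.13 to 0.07 for CTDSPL. The 0.33 of CTDSP1 was in RPRD1A_RPRD2_KD, at 63.2 and 91.5 CPM, the latter in the library that stood apart by GC dependence. CTDSPL also had the lowest coefficient of variation across the 16 HEK293T libraries, at 7.36%, against 11.3% to 26.2% for the others. These values include counting spread, which is larger for genes with fewer reads, so they do not rank how steady the members are. CTDSPL2 ran from -0.35 in RPRD2_KD, whose libraries read 40.2 and 32.2 CPM against 43.9 and 48.4 in CTRL, to 0.06 in RPRD1B_KD. UBLCP1, with the fewest reads, had the widest limits: from -0.46 to 0.25, with 95% intervals from -1.23 to 0.96.

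**Figure D3:**
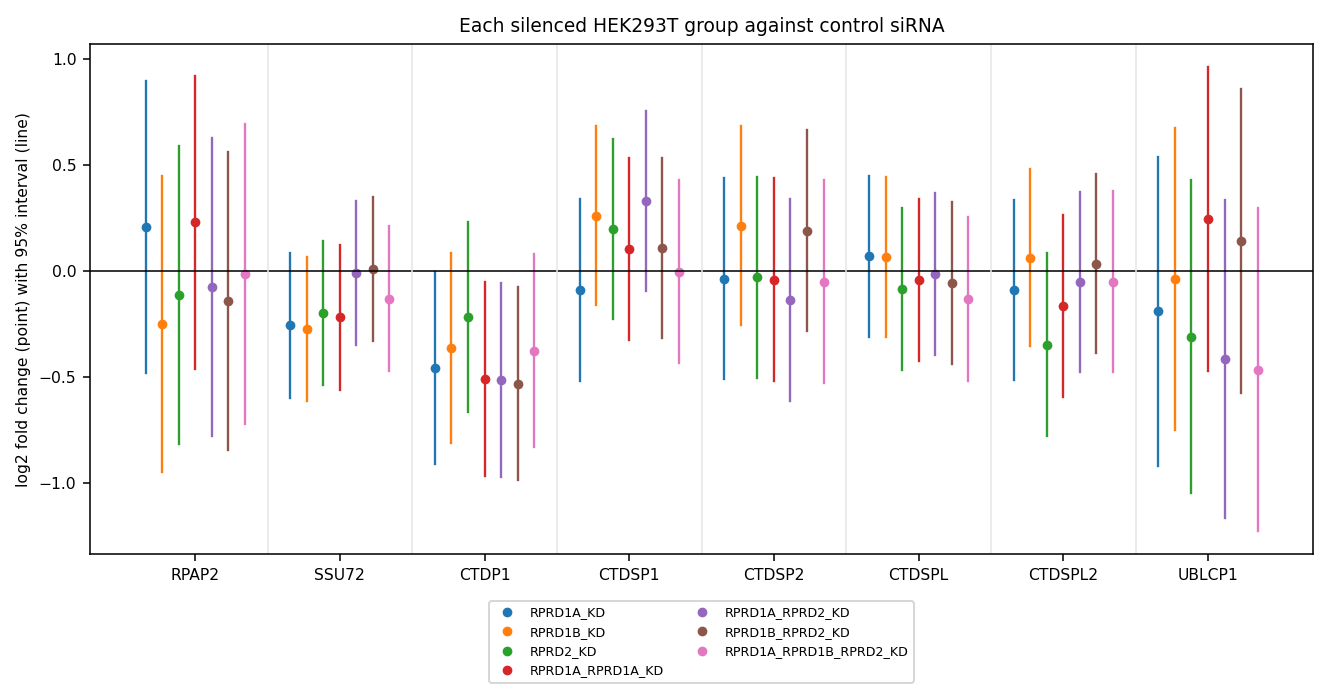
Log2 fold change of each member in the 7 knockdown groups against CTRL, with 95% intervals from edgeR's quasi-likelihood fit over 16 HEK293T libraries. CTDP1 points lie between -0.53 and -0.22, and no member passed the adjusted threshold.

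An additive model with 1 term for each RPRD gene that the labels name, fitted over all 16 HEK293T libraries, gave the same count of 0. Its terms follow the labels and not the measured silencing. RPRD1A_RPRD1A_KD was coded without RPRD1B, although RPRD1B was low there, and RPRD1A was below CTRL in silenced groups coded without it. With RPRD1A_RPRD1A_KD left out, again no member was called. No member was called, and none had an unadjusted p under 0.05, for labels naming RPRD1A (0.0169% of genes called, 4.19% unadjusted), RPRD1B (0.0254% and 4.84%) or RPRD2 (0.0169% and 3.56%). The CTDP1 terms lay between -0.22 and -0.04 on the log2 scale, and the smallest unadjusted p was 0.065. RPAP2 ran from -0.11 to 0.19, with 95% intervals from -0.45 to 0.51, narrower than in the single comparisons.

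No phosphatase gene was called in the 4 comparisons within Flp-In T-REx 293 by edgeR or by DESeq2, and none had an unadjusted p under 0.05. Of all 11948 genes tested, 1.11% were called and 10.3% were under 0.05 unadjusted in RPRD1B_FL_TET against FLP_TET, and 1.18% and 13.3% in RPRD1B_FL against FLP. For tetracycline, the shares were 1.02% and 22.7% in FLP_TET against FLP, and 0% and 6.13% in RPRD1B_FL_TET against RPRD1B_FL. The difference of the tetracycline effects of the 2 lines called 0% of genes, with 3.99% unadjusted and again no member on either count.

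RPAP2 read 26.6 and 13.8 CPM in FLP, 17.5 and 13.7 in RPRD1B_FL, 16.01 and 11.6 in FLP_TET, and 9.14 and 11.6 in RPRD1B_FL_TET. It was lower in all 4 comparisons, by -0.62 to -0.33 on the log2 scale. These share the same 4 groups and are not separate results. FLP replicate 1 stood above every other Flp-In library, and the 95% intervals for RPAP2 reached from -1.32 to 0.28. The smallest unadjusted p was 0.079 and the smallest adjusted p 0.30, by edgeR's quasi-likelihood test. FLP_TET against FLP became -0.95 (adjusted p 0.063) for RPAP2 without FLP replicate 2 and -0.0031 (adjusted p 1.00) without FLP replicate 1. Without FLP replicate 1, RPRD1B_FL against FLP turned to 0.18.

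SSU72, CTDP1, CTDSP1 and CTDSP2 had their highest value of the 4 comparisons in FLP_TET against FLP. SSU72 read 199 and 193 CPM in FLP_TET against 154 and 164 in FLP, a log2 fold change of 0.30 (95% interval -0.01 to 0.61). CTDP1 read 59.1 and 68.4 against 42.2 and 54.2 (0.39, interval -0.02 to 0.79). CTDSP1 read 92.1 and 97.4 against 66.5 and 87.2 (0.29, interval -0.06 to 0.64), and CTDSP2 79.5 and 84.5 against 62.7 and 66.8 (0.33, interval -0.0047 to 0.67). FLP and FLP_TET did not overlap for these 4 genes, nor for CTDSPL2, at -0.26 on the log2 scale: 5 of 8 members, beside 58% of all genes tested. The intervals of the 4 genes reached below 0 and their adjusted p was 0.23 to 0.31 by edgeR's quasi-likelihood test. The GC dependence of the libraries moved with this comparison, and its part in these values was not tested. GC was taken from the longest annotated transcript of each gene, although the kit reads 3′ ends. By that measure the 4 genes are 53.1% to 61.7% GC, and CTDSPL, at 0.04 on the log2 scale, is 48.0%. RPAP2, CTDSPL2 and UBLCP1, with values below 0, are 36.2% to 41.2% GC. With the GC correction the values became 0.14 for SSU72, 0.09 for CTDP1, -0.02 for CTDSP1 and 0.21 for CTDSP2. For RPAP2 the corrected value was -0.29 and for CTDSPL2 0.09, and those of CTDSPL and UBLCP1 are not given here. GC dependence and tetracycline cannot be told apart in FLP_TET against FLP, so the correction can also take out a tetracycline effect. CTDSPL, CTDSPL2 and UBLCP1 lay between -0.32 and 0.15 in all 4 comparisons.

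**Figure D4:**
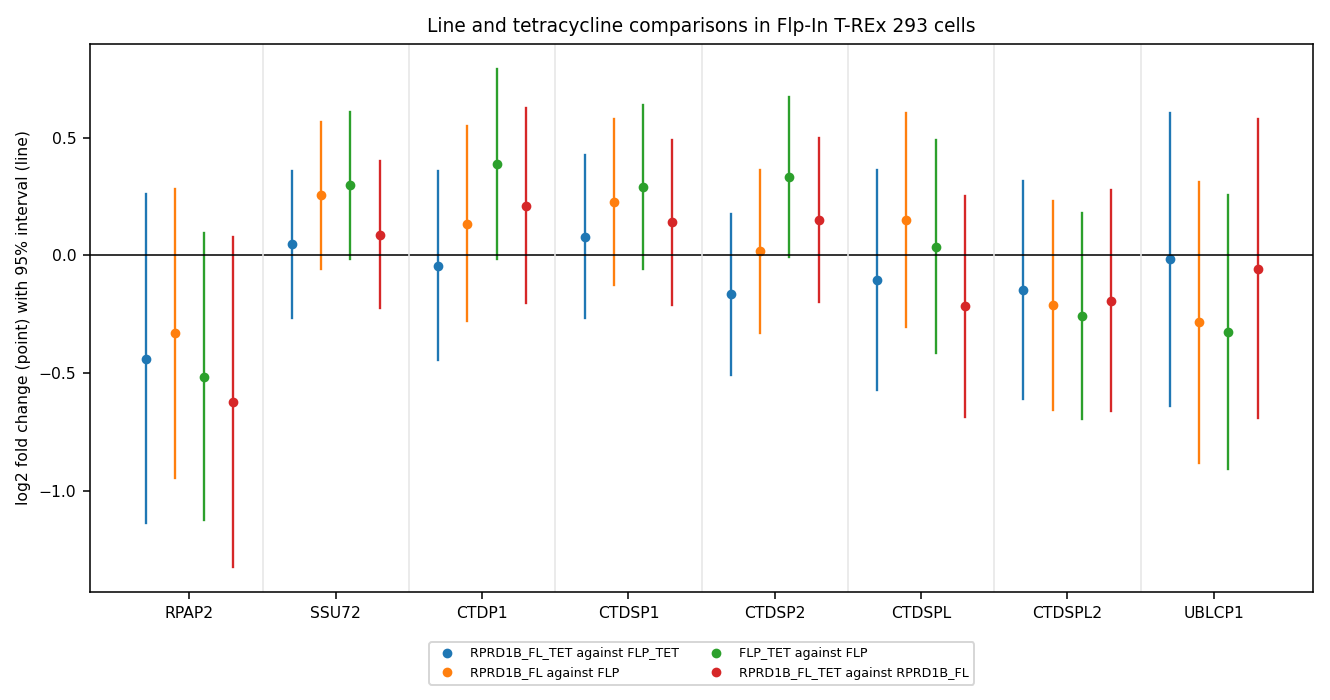
Log2 fold change of each member (points) with its 95% interval (lines) in the 4 comparisons within Flp-In T-REx 293, from edgeR's quasi-likelihood fit over 8 libraries. All 4 RPAP2 points lie below 0, from -0.62 to -0.33, and every interval of every member includes 0. The 4 comparisons share the same 4 groups, so the points of a gene are not separate results.

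CTDSPL was higher in HEK293T than in Flp-In T-REx 293. In CTRL it read 52.8 and 47.9 CPM, against 25.5 and 30.4 in FLP, and over all groups the 16 HEK293T libraries lay between 43.3 and 56.6 CPM and the 8 Flp-In libraries between 24.8 and 33.0. The lines did not overlap for CTDSPL, which held for 20.5% of the 12803 genes tested and for no other member. CTRL against FLP gave a log2 fold change of 0.84 (SE 0.20, 1.79-fold) with an adjusted p of 0.0018 by edgeR's quasi-likelihood test over all 24 libraries. CTDSPL was the 1 member called of 8, against 33.4% of all genes. It was called under every alternative tried, from 0.69 to 0.98 when 1 library was left out.

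CTDP1 was the other member under 0.05 unadjusted in that comparison, at 0.48 (SE 0.21, p 0.033, adjusted p 0.085), beside 42.8% of all genes. It became a call without CTRL replicate 1, at 0.70 with an adjusted p of 0.035, and was 0.13 with an adjusted p of 0.78 without CTRL replicate 2. Without FLP replicate 1 it was 0.28, with an adjusted p of 0.47. RPAP2 differed by 0.66 with an adjusted p of 0.13, and became a call without FLP replicate 1, at 1.15 with an adjusted p of 0.041. Cell line, siRNA transfection and culture cannot be told apart in any comparison of the 2 lines. Reads outside annotated genes moved with the line too, at 27.4% to 36.7% of reads in HEK293T and 15.3% to 19.5% in Flp-In T-REx 293, and their part in the differences was not tested.

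With all 8 HEK293T groups averaged against all 4 Flp-In groups, a contrast added after the data were seen and one that averages in the silenced groups, 4 of 8 members were called, against 68.8% of all genes. The unadjusted count was 5 of 8, against 71.1%, so the members' share was not above the background. RPAP2 was higher in HEK293T by 1.09 on the log2 scale (SE 0.15, 2.13-fold, adjusted p 5.83e-07, edgeR), although FLP replicate 1, at 26.6 CPM, lay inside the HEK293T range of 19.9 to 42.9. CTDSPL was higher by 0.78 (SE 0.087, 1.71-fold, adjusted p 1.31e-08). CTDSPL2 was higher by 0.46 (SE 0.091, adjusted p 8.41e-05), a call that a correction for transcript GC content lost, at 0.093 with an adjusted p of 0.33.

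CTDSP1 was the single member called lower in HEK293T, by -0.46 (SE 0.082, adjusted p 2.29e-05, edgeR's quasi-likelihood test). Its Flp-In libraries ran from 66.5 to 105.5 CPM and its HEK293T libraries from 54.6 to 91.5. In CTRL against FLP it differed by -0.34 and was not called, with an adjusted p of 0.19 by the same test. CTDSP2 differed by -0.19 with an adjusted p of 0.063, and passed the threshold in 13 of 31 alternatives, where the adjusted p ranged from 0.022 to 0.94. It was -0.0079 with the GC correction. So of the 3 miR-26 hosts whose sequences are printed above, CTDSPL was called higher in HEK293T in both contrasts. In the contrast of all groups, CTDSP1 was called lower there and CTDSP2 did not pass the test. Whether CTDSP1 and CTDSP2 differ from each other was not tested. SSU72 (-0.07), CTDP1 (-0.12) and UBLCP1 (0.09) were not called.

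**Figure D5:**
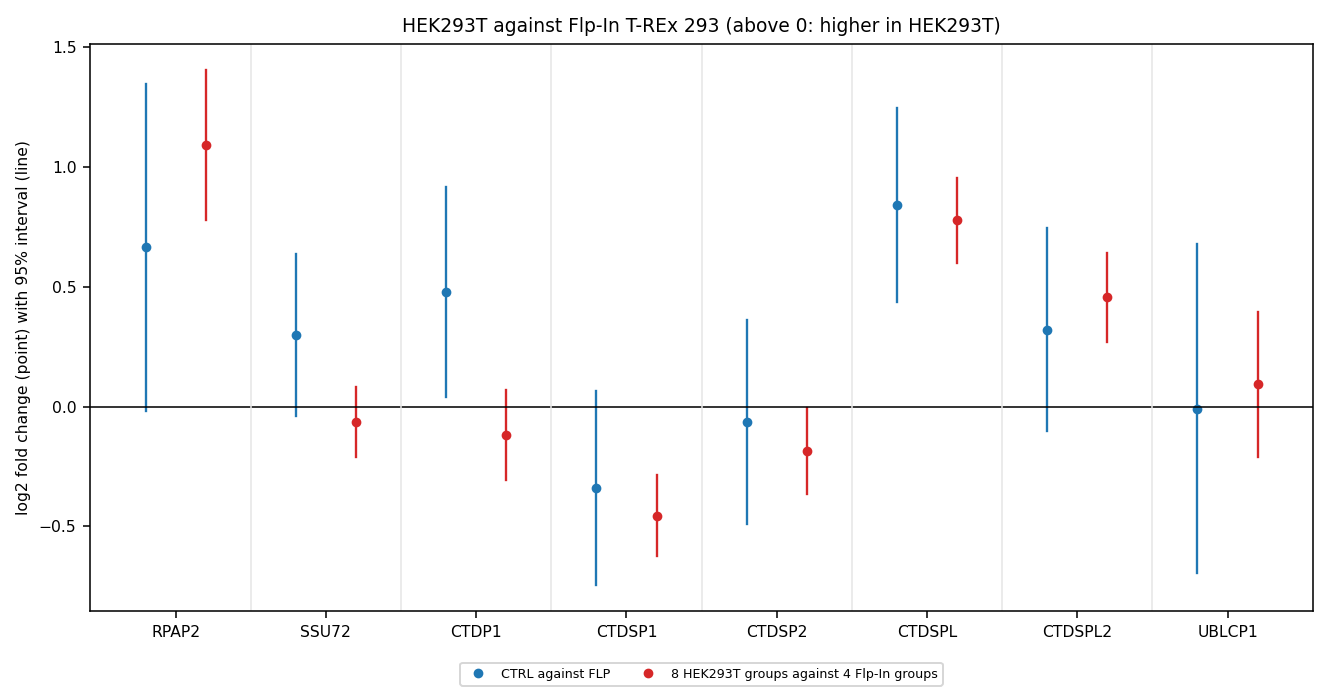
Log2 difference of HEK293T from Flp-In T-REx 293 for each member, with 95% intervals, for CTRL against FLP and for all groups of each line. CTDSPL lies above 0 in both comparisons, at 0.84 and 0.78, while CTDSP1 lies at -0.34 and -0.46.

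Related genes of the tail's phosphorylation cycle were read from 5 lists with 44 genes, all of them tested: CTD kinases, protein phosphatase modules, polymerase and RPAP2 or RPRD partners, REST partners, and other phosphatases of the family. No gene of the lists was called in any knockdown or additive term, with 0 to 3 unadjusted per comparison. In RPRD1B_FL_TET against FLP_TET, 1 of 44 was called: CDK8, a kinase of the Mediator complex, read 27.4 and 27.6 CPM against 13.9 and 13.5, higher by 0.99 (SE 0.24, adjusted p 0.043, edgeR). That call was lost with DESeq2, at an adjusted p of 0.17, with a mean count of 50 required, at 0.057, with a replicate block, at 0.057, and when any 1 of the 4 compared libraries was left out, at adjusted p 0.060 to 0.37.

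In FLP_TET against FLP, 1 of 44 was called: RPAP3, a subunit of the R2TP chaperone complex that helps assemble polymerase, read 36.7 and 41.6 CPM against 89.0 and 72.5, lower by -1.04 (SE 0.20, adjusted p 0.044, edgeR). Leaving out FLP replicate 1 gave an adjusted p of 0.63, and leaving out either FLP_TET library gave 0.34. The call was also lost with a mean count of 50 required, at 0.072, and with a replicate block, at 0.055. No listed gene was called in RPRD1B_FL against FLP or in RPRD1B_FL_TET against RPRD1B_FL.

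Between CTRL and FLP, 11 of the 44 were called, 5 higher and 6 lower in CTRL, beside 33.4% of all genes. Higher in CTRL were HDAC1 (1.70), CCNT2 (1.14), WDR82 (1.00), CDK13 (0.76) and HDAC2 (0.74), on the log2 scale. HDAC1 and HDAC2 are histone deacetylases that REST recruits, CCNT2 and CDK13 belong to elongation kinases, and WDR82 is part of the PNUTS phosphatase complex. Among those lower in CTRL were PPP1R10 (-0.89), the PNUTS subunit itself, TIMM50 (-0.78), PPP2CA (-0.76), CCNK (-0.74) and GPN2 (-0.71). Leaving out 1 compared library ended the call for CDK13, GPN2, HDAC2, PPP1R10 or TIMM50 in turn, while CCNK, CCNT2, HDAC1, PPP2CA and WDR82 stayed called under all alternatives run.

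As a description, the 2 genes most like each member over the 12 group means, by Pearson's r of log2 CPM among 8888 genes, were named. Those for RPAP2 were DYNC2H1 and VPS13A (both r = 0.98), for CTDSPL TPM2 and NECTIN3 (both 0.99), for CTDSPL2 ERP29 and TFDP2 (both 0.96), and for CTDSP1 MIEN1 (0.97) and DMKN (0.95). For SSU72 they were EIF3B (0.94) and MRPL41 (0.91), for CTDSP2 STRN4 (0.91) and S100A10 (0.89), and for CTDP1 RANBP3 (0.85) and RUVBL1 (0.84). UBLCP1 had the weakest likeness, with DTL at 0.79 and MON2 at 0.75. The 12 points fall into the 2 lines, and each group mean rests on 2 libraries whose depth and GC dependence all genes of the library share. Among all pairs of members, the lowest r over the 16 HEK293T libraries was -0.69, for RPAP2 and CTDSP2. Over the 8 Flp-In libraries it was -0.91, for RPAP2 and CTDSP1. The highest in Flp-In was 0.86, for SSU72 and CTDSP1. In HEK293T it was 0.32 for the same pair, and also 0.32 for CTDSP2 and UBLCP1. SSU72 and CTDSP1 both had their highest HEK293T value, 229.9 and 91.5 CPM, in RPRD1A_RPRD2_KD replicate 2, the library that stood apart by GC dependence. RPAP2 and CTDSP2 are also the members that lay on opposite sides by replicate number in HEK293T, as given above.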

How the data were processed

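Each sample has 1 deposited table, in which the authors give raw read counts for gene names. The submitters' processing notes name FastQC, STAR, HTSeq, DESeq2 and the build GRCh38, without versions. The annotation and strand setting are not given in the sources used here. The 5 closing rows of each table, for reads not assigned to a gene, were left out.

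The counts went into edgeR 4.0.16 (with limma 3.58.1, in R 4.3.3): filterByExpr (minimum count 10, minimum total count 15), TMM scaling, and the quasi-likelihood test with a coefficient per group. The 16 HEK293T and the 8 Flp-In T-REx 293 samples were fitted separately, and all 24 together for comparisons of the lines. A gene was called at a Benjamini-Hochberg adjusted p under 0.05 over all genes tested. The fits were tested on simulated data. CPM are TMM-scaled, and 3 counts are worth 0.85 to 1.65 CPM in a library. Intervals are 95%. The labels do not say that replicates are separate cultures, so p-values measure the spread between these samples, which may be technical.

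Alternatives were RLE size factors, no filter and a mean count of 50, DESeq2 1.42.0, a GC correction, a replicate block, only the compared groups, and leaving out each library. For the additive model, RPRD1A_RPRD1A_KD was also left out. The members are named with their values, a fold change with SE where one was called or under 0.05 unadjusted, and genes of the pathway lists where called, of which 1 is not reported here. Members and lists were chosen with earlier results of these data known.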

Additional observations from a re-analysis of the deposited data

How the results depend on the processing

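For 17 counts of members called, 373 of 392 alternatives gave the reported count and 387 a count within 1.5 times of it; the other 5 were in CTRL against FLP, where 1 member was called. That count was 2 with a replicate block (CTDSPL and RPAP2, the latter with an adjusted p of 0.030), 3 with a GC correction (CTDSPL, SSU72 and CTDSP1), 4 with both (RPAP2 as well), and 1 to 2 when 1 library was left out. For the pooled lines, with 4 members called, 17 of 31 alternatives gave 4, 13 gave 5 (CTDSP2 as well) and the GC correction gave 3 (without CTDSPL2). CTDSPL2 lost its call in 2 alternatives, so the same count can hold other members. Same-numbered HEK293T samples deviated together with a mean r of 0.336 (from -0.0115 to 0.527, over 0.1 in 26 of 28 pairs of groups). Both HEK293T pairs under 0.1 hold RPRD1A_RPRD2_KD, with CTRL (-0.0115) and with RPRD2_KD (0.048), and replicate 2 of RPRD1A_RPRD2_KD stood apart by GC dependence. Flp-In samples did not deviate together (mean -0.0175, from -0.352 to 0.455). As not every pair passed 0.1, the main fits do not pair the samples by number, although 26 of 28 HEK293T pairs did pass. Those fits thus leave differences by replicate number in HEK293T within their spread, and their SEs, intervals and p-values there include them. The block also took the pooled lines from 4 to 5 members and left the other counts of members as they were. It moved the number of all genes called from 2 to 9 in RPRD1A_RPRD1A_KD, from 1 to 13 in RPRD1A_RPRD2_KD, from 2 to 5 in RPRD1B_RPRD2_KD, from 2 to 8 in RPRD1A_RPRD1B_RPRD2_KD and from 122 to 1 in FLP_TET against FLP. Leaving out RPRD1A_RPRD2_KD replicate 2 together with the block gave 25 to 167 genes in the knockdowns other than RPRD1A_RPRD2_KD, and leaving out replicate 1 of that group gave 573 there. In the Flp-In comparisons with 133, 141 and 122 genes called, alternatives gave 28 to 261, 40 to 392 and 0 to 1307. Between the lines, 4279 genes became 2581 to 4981 and 8807 became 5016 to 9895. UBLCP1 was not tested where a mean count of 50 was required, and fits of only the compared groups do not apply to the additive terms or the pooled lines. Depth limits RPAP2 and UBLCP1 most, as they have the fewest reads.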
